A study of Mus musculus with 32 samples.

Results

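A set of 10 genes of bone morphogenetic protein (BMP) signalling were followed through mouse embryonic stem cells (ESC) and neural cells derived from them. They were taken by symbol from tables of 55573 genes and comprise the ligands Bmp4 and Bmp7, the antagonist Nog, the receptor-like inhibitor Bambi, the inhibitory SMADs Smad6 and Smad7, and the ID genes Id1, Id2, Id3 and Id4. All 10 were found once and all 10 passed the filter on low counts in every comparison. The cells, of strain 129S5/SvEvBrd, carry a tag named MD on Smarce1, which encodes the SWI/SNF chromatin remodelling subunit BAF57. The control genotype carries the same tag with the substitution R42A. The labels do not spell out MD. From general knowledge it is taken as a cyclin B1 degron that marks its carrier for breakdown at mitotic exit, with R42A disabling it. All groups are therefore tagged, and no untagged parental cells were analysed here.

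The ESC, kept in serum and LIF on gelatin, came as 4 R42A clones (A04, A10, A01, A02) and 4 MD clones (09, 30, 45, 47), with 3 libraries per clone. The neural cells were obtained after 6 days in a neural medium that the labels call RHA-B, and carry the clone labels A04 and A10 (R42A) and 09 and 30 (MD), with 2 libraries each. By runs of library numbers in the labels, A04, A10, 09 and 30 form a first ESC series and the other clones a second, and the neural libraries form 1 further run. Stage and library run therefore cannot be told apart.

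BMP ligands bind paired type I and type II receptors on the cell surface, and the receptors phosphorylate SMAD proteins that enter the nucleus with SMAD4 and act on target genes. The ID genes are among the best known direct targets. ID proteins have a helix-loop-helix domain without a DNA-binding region, so they capture E proteins and keep them from pairing with tissue-specific partners. In mouse ESC, BMP and LIF together are known to sustain self-renewal through ID proteins, and during neural induction BMP signalling holds back neural fate until antagonists such as Noggin relieve it. SMAD6, SMAD7 and BAMBI are induced by the pathway and dampen it.

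Promoter windows from RefSeq (GRCm38.p6), 250 bases before to 50 after the annotated start, were matched for 5 of the 10 genes, Id2, Id3, Id4, Bmp4 and Smad6. The windows of the 3 ID genes and of Smad6, members of the classes known as SMAD targets, are printed 5′ to 3′ on the gene's own strand. They lie at chr12:25096043-25096342 on the minus strand (Id2), chr4:136143572-136143871 on the plus strand (Id3), chr13:48260866-48261165 on the plus strand (Id4) and chr9:64022010-64022309 on the minus strand (Smad6). Capitals mark GGCGCC, a GC-rich element bound by BMP SMADs that reads the same on both strands, and the short SMAD-binding box GTCT, which reads AGAC on the other strand.
Id2: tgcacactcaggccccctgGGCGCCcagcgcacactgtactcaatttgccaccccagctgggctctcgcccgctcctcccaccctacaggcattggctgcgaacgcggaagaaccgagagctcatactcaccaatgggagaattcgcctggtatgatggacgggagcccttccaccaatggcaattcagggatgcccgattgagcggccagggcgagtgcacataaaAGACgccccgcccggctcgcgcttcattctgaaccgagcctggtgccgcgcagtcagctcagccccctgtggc
Id3: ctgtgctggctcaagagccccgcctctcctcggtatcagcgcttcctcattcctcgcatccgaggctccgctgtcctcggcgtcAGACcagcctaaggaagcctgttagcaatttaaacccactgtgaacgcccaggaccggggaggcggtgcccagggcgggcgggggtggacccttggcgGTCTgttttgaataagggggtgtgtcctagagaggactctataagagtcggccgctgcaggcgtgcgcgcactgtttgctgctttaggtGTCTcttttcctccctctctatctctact
Id4: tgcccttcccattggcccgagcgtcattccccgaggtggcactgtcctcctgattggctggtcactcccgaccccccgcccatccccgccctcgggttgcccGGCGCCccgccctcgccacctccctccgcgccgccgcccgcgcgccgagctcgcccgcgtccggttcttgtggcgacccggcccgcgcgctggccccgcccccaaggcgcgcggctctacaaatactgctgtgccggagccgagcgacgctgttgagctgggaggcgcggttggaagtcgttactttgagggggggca
Smad6: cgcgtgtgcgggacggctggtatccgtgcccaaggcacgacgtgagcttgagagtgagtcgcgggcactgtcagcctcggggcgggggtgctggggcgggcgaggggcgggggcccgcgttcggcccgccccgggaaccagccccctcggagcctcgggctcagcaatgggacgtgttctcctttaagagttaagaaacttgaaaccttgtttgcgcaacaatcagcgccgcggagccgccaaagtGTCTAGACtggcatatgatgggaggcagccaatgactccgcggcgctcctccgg
GGCGCC was found in the Id2 and Id4 windows, once in each, and in 11.9% of all 32851 windows in the table. GTCT on either strand was found 3 times in the Id3 window, 2 times side by side near the start of Smad6, once in Id2 and not in Id4, and is held by 88.0% of all windows. The E box CANNTG, the site that E proteins and their partners bind, was found once in Id2, once in Smad6, 3 times in Bmp4 and not in Id3 or Id4, against 72.3% of all windows. The motifs do not overlap one another in these windows. These matches are letters in the windows and say nothing of binding.

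Library totals ran from 38699951 to 96424439 counts. The pluripotency markers (Pou5f1, Nanog, Sox2, Zfp42, Esrrb, Klf4) summed to 3106 to 4718 CPM (counts scaled to a common library size) in R42A ESC clones and 2655 to 3715 CPM in MD ones. The ESC means of Klf4 (156 CPM in R42A and 73.8 CPM in MD), Esrrb (760 and 460), Zfp42 (780 and 569), Pou5f1 (1341 and 1099) and Nanog (673 and 625) were lower in MD. That of Sox2 was higher (274 and 297 CPM). Clones of the genotypes overlapped for all but Klf4 and Esrrb. In neural cells the markers summed to 242 to 324 CPM. Most of the neural sum was Sox2, at 210 CPM in R42A and 286 CPM in MD, which is also on the progenitor list. The progenitor markers (Sox1, Pax6, Nes, Sox2, Hes5) summed in neural cells to 1109 to 1124 CPM in R42A and 865 to 881 CPM in MD. Nes (591 CPM in R42A and 286 CPM in MD), Sox1 (173 and 125 CPM) and Hes5 (32.8 and 27.7 CPM) were lower in MD. Sox2 and Pax6 (110 and 149 CPM) were higher. Smarce1 RNA did not pass the test in ESC (log2 change 0.09 ± 0.09 SE, adjusted p = 0.438 in edgeR) and was higher in MD neural cells (0.34 ± 0.09, adjusted p = 0.0293). It lies on chromosome 11, where the median log2 change in MD neural cells was 0.48 and 79.2% of 1691 genes were positive. The RNA does not show how much protein remained. Several lists of markers of other cell types differed with genotype. In ESC, smooth muscle and mesenchyme markers (Acta2, Tagln, Col1a1, Col1a2, Col3a1) summed to 3.65 to 20.5 CPM in R42A clones and 55.8 to 105 CPM in MD clones, with Col1a2 and Col3a1 under 1 CPM in R42A. Surface ectoderm markers (Krt8, Krt18, Krt5, Trp63, Epcam) summed to 66.0 to 107 CPM and 160 to 252 CPM, with Krt5 and Trp63 under 1 CPM in both genotypes. Single MD ESC libraries reached 53.3 CPM for Acta2, 96.0 CPM for Tagln and 160 CPM for Krt8. The MD library medians were 16.3, 30.4 and 30.6 CPM, and those of R42A 1.45, 3.22 and 14.6 CPM. In neural cells, neuron markers (Tubb3, Dcx, Map2, Elavl4) summed to 570 to 594 CPM in R42A and 1535 to 1540 CPM in MD, and smooth muscle and mesenchyme markers to 204 to 216 CPM and 101 to 105 CPM. The members of that list went opposite ways: Acta2 and Tagln were at 82.2 and 105 CPM in R42A and 3.90 and 3.71 CPM in MD, while Col1a1, Col1a2 and Col3a1 were at 6.98, 6.69 and 9.95 CPM in R42A and 28.4, 29.5 and 37.3 CPM in MD. Endoderm markers (Sox17, Gata4, Gata6, Foxa2, Sox7) summed to 105 to 119 CPM in neural R42A cells and 61.1 to 66.2 CPM in MD, and surface ectoderm markers to 121 to 138 CPM and 72.04 to 77.7 CPM. The part of these shifts in the results was not tested, and in such bulk RNA fewer cells of a type and less RNA per cell cannot be told apart.

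In ESC, MD clones had more Id2, Id3, Smad6 and Nog RNA and less Bmp4, Bmp7 and Smad7 RNA than R42A clones. Bmp4 was 3.005-fold lower and Bmp7 2.48-fold lower, while Id2 was 2.13-fold and Id3 2.06-fold higher. Id1, Id4 and Bambi did not pass the test. Thus 4 of 10 genes were higher, beside 17.1% of all 21567 genes tested, and 3 of 10 were lower, beside 19.4%. The median log2 change of the 10 was -0.05, beside -0.03 over all genes. A gene is called at a Benjamini-Hochberg adjusted p under 0.05 over all genes tested, in edgeR's quasi-likelihood test on counts summed per clone.

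**Figure D1:**
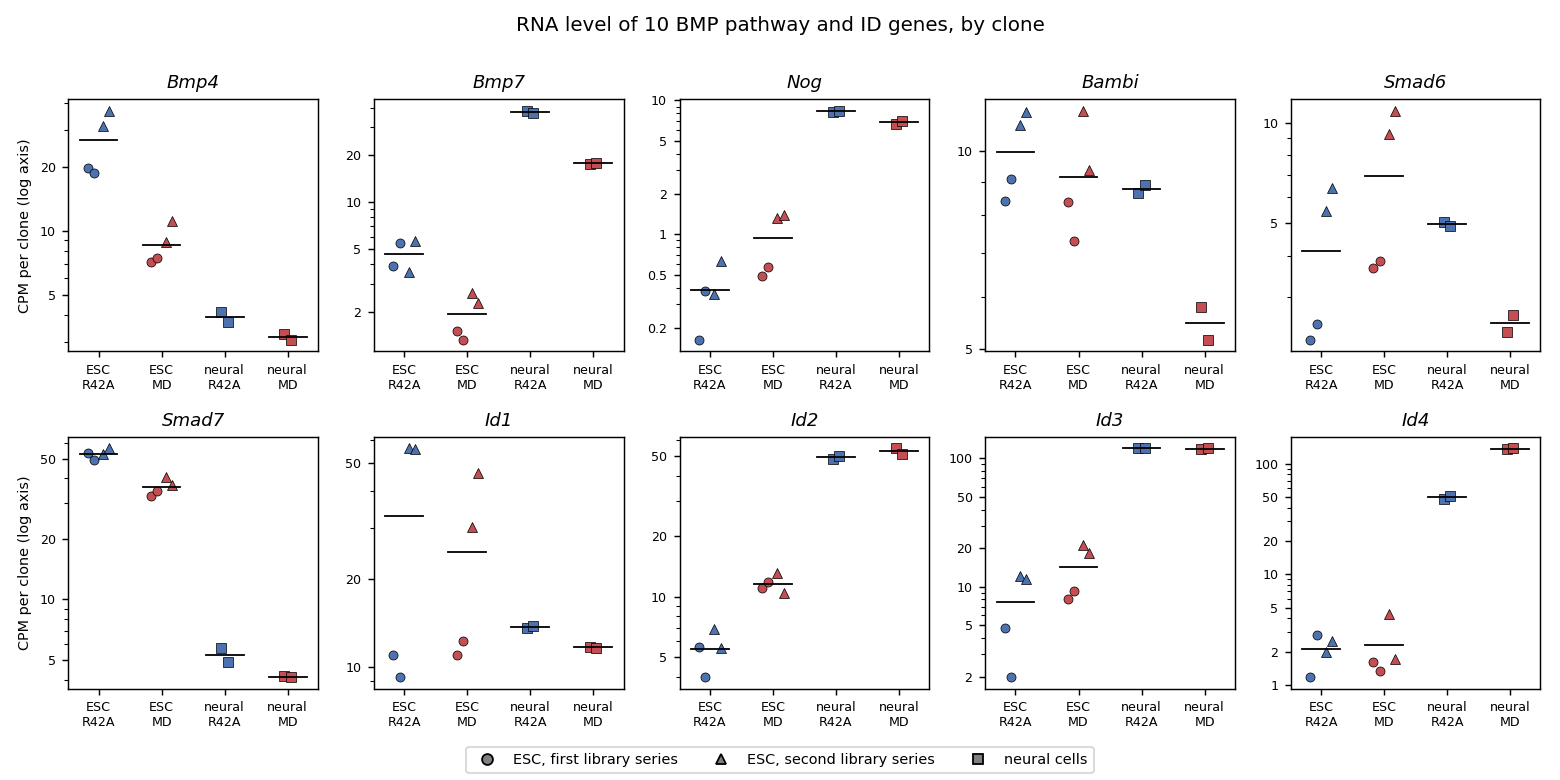
RNA level of each gene in CPM (log axis) in each clone, by genotype and stage. Points are clone sums, circles and triangles mark the first and second ESC library series, squares neural cells, and lines the group means. For Bmp4 all 4 MD ESC clones (7.12 to 11.1 CPM) lie under all 4 R42A clones (18.8 to 36.8 CPM).

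Bmp4 (ENSMUSG00000021835.15, chr14:46383520-46390669, minus strand, mm10) encodes a secreted ligand that mouse ESC and the early embryo use to activate the pathway. Its level in ESC was 19.8, 18.8, 31.3 and 36.8 CPM in the R42A clones A04, A10, A01 and A02, and 7.12, 7.42, 8.85 and 11.1 CPM in the MD clones 09, 30, 45 and 47. The groups did not overlap, and in both genotypes the second-series clones were the higher. MD differed from R42A by a log2 change of -1.59 ± 0.12 (SE, adjusted p = 5.13e-05 in edgeR), and was -1.35 in the first series alone and -1.76 in the second. Single R42A libraries ran from 9.97 to 41.0 CPM with a median of 28.5, and MD libraries from 5.25 to 15.2 CPM with a median of 8.498, so that libraries overlapped where clones did not. The annotation places 2 genes antisense to Bmp4, which held 912 counts over all libraries against 25243 for Bmp4.

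Bmp7 (ENSMUSG00000008999.7, chr2:172868012-172940321, minus strand) encodes a ligand of another BMP subgroup that can pair with BMP4. R42A clones A04, A10, A01 and A02 had 3.88, 5.47, 3.602 and 5.63 CPM, and MD clones 09, 30, 45 and 47 had 1.51, 1.32, 2.65 and 2.27 CPM. Every MD clone was under every R42A clone. The fitted log2 change came to -1.31 ± 0.22 (adjusted p = 0.00210 in edgeR).

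Nog (ENSMUSG00000048616.4, chr11:89300638-89302332, minus strand) encodes Noggin, a secreted protein that binds BMPs and blocks their receptor sites. It had the fewest counts of the 10 genes in ESC, with 8 to 44 counts per R42A library and 11 to 104 per MD library. Its level was 0.163, 0.376, 0.359 and 0.630 CPM in A04, A10, A01 and A02, and 0.492, 0.568, 1.31 and 1.40 CPM in 09, 30, 45 and 47. The groups overlapped between series, but in each series both MD clones were above both R42A clones. This was a log2 change of 1.22 ± 0.29 (adjusted p = 0.0104 in edgeR). Nog lies on chromosome 11, where 82.4% of 1608 genes had a positive log2 change in MD ESC and the median was 0.45. With each chromosome scaled separately the change of Nog was 0.77 and its adjusted p 0.0578, so the call was lost. It was also lost without the series term (adjusted p = 0.108) and in the first series alone (0.218).

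Bambi encodes a receptor-like membrane protein without a kinase domain that acts as a decoy. Its ESC level was 9.99 ± 1.48 CPM in R42A and 9.15 ± 1.80 CPM in MD (SD, n = 4 clones), and the clones of the groups overlapped. MD differed from R42A by a log2 change of -0.13 ± 0.10 (adjusted p = 0.332 in edgeR).

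The inhibitory SMADs differed in opposite directions. Smad6 (ENSMUSG00000036867.7, chr9:63953076-64022059, minus strand), which acts mainly on BMP signals, had 2.24, 2.50, 5.47 and 6.37 CPM in the R42A clones A04, A10, A01 and A02 and 3.69, 3.86, 9.24 and 10.9 CPM in the MD clones 09, 30, 45 and 47. The second-series clones of each genotype were above the first-series ones, and within each series both MD clones were above both R42A clones. The fitted log2 change came to 0.72 ± 0.11 (adjusted p = 0.00104 in edgeR), and it was 0.73 in the first series alone and 0.78 in the second alone. Without the series term its adjusted p was 0.363, and in the first series alone 0.0690.

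Smad7, on chromosome 18, which acts on both BMP and TGF-beta signals, had the smallest coefficient of variation between ESC clones of these genes, 5.70% in R42A and 9.49% in MD. R42A clones A04, A10, A01 and A02 had 53.3, 49.2, 52.8 and 56.6 CPM and MD clones 09, 30, 45 and 47 had 32.7, 34.5, 40.6 and 37.1 CPM. The groups were separate, with a log2 change of -0.55 ± 0.06 and an adjusted p of 0.000244 in edgeR.

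Of the ID genes, Id2 (ENSMUSG00000020644.9, chr12:25093799-25097140, minus strand) had 5.61, 3.99, 6.89 and 5.56 CPM in A04, A10, A01 and A02 and 11.03, 11.9, 13.2 and 10.4 CPM in 09, 30, 45 and 47. The MD clones were all above the R42A clones, and the library series overlapped in each genotype. This was a log2 change of 1.09 ± 0.16 (adjusted p = 0.000930 in edgeR).

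Id3 (ENSMUSG00000007872.3, chr4:136143497-136145755, plus strand) had 4.82, 1.98, 12.2 and 11.4 CPM in A04, A10, A01 and A02 and 8.02, 9.25, 21.0 and 18.3 CPM in 09, 30, 45 and 47. The groups overlapped between series and were separate within each. MD differed from R42A by a log2 change of 1.04 ± 0.26 (adjusted p = 0.0133 in edgeR). It was 1.40 in the first series alone, with an adjusted p of 0.118, and 0.74 in the second, with an adjusted p of 0.00510. Without the filter on low counts the adjusted p was 0.0790, and without the series term 0.351. Libraries of 1 clone also varied, from 3.51 to 13.9 CPM in clone 09 and from 7.496 to 14.9 CPM in clone 30.

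Id1 (ENSMUSG00000042745.9, chr2:152736251-152737410, plus strand) showed the widest gap between series. Its level was 10.99 and 9.27 CPM in the first-series R42A clones A04 and A10, and 56.1 and 55.6 CPM in the second-series clones A01 and A02. The MD clones 09 and 30 had 10.99 and 12.3 CPM and the clones 45 and 47 had 30.1 and 46.0 CPM. The genotypes lay together in the first series, and the MD clones were the lower ones in the second. The log2 change was -0.18 ± 0.19 over both series (adjusted p = 0.492 in edgeR), 0.26 in the first and -0.54 in the second. The difference between the series, a test added after these values were seen, was -0.83 ± 0.26 in edgeR. Its unadjusted p was 0.0144 and its adjusted p 0.931, where 0 of 21567 genes tested were called.

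Id4 (ENSMUSG00000021379.2, chr13:48261228-48266026, plus strand) was low in ESC, at 1.18, 2.80, 1.97 and 2.48 CPM in A04, A10, A01 and A02 and 1.63, 1.35, 4.41 and 1.72 CPM in 09, 30, 45 and 47. The groups overlapped, and clone 45 was the highest. The fitted log2 change came to 0.02 ± 0.36 (adjusted p = 0.966 in edgeR). It was -0.39 without clone 45, with an adjusted p of 0.327.

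**Figure D2:**
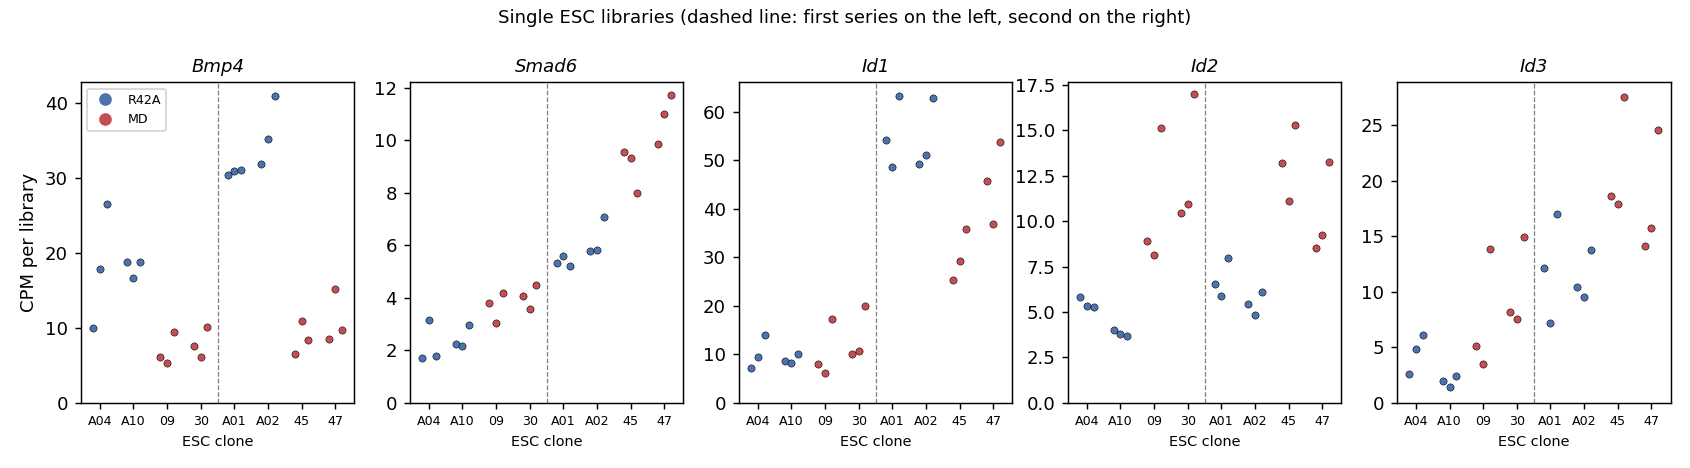
Levels in CPM of Bmp4, Smad6, Id1, Id2 and Id3 in each of the 24 ESC libraries, by clone, with R42A in blue and MD in red and the second series right of the dashed line. Id1 libraries lie between 6.20 and 20.01 CPM in the first series and between 25.4 and 63.2 CPM in the second.

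Neural cells were compared with ESC of the same clone labels in each genotype. In R42A, 7 of 10 were higher in neural cells, beside 37.9% of all 23844 genes tested, and 2 were lower, beside 40.4%. In MD, 5 of 10 were higher, beside 40.3%, and 4 were lower, beside 41%. The median log2 change of the 10 was 1.9997 in R42A and 1.04 in MD, beside -0.06 and -0.02 over all genes.

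In R42A, Id3, Nog, Id4 and Id2 had the largest rises of the 10 genes, and in MD Id4, Id3, Nog and Bmp7. Id3 went from 4.82 and 1.98 CPM in A04 and A10 ESC to 120 and 120 CPM in the neural cells of these labels, a 34.6-fold rise (log2 change 5.11 ± 0.38, adjusted p = 1.30e-05 in edgeR). In MD it went from 8.02 and 9.25 CPM in 09 and 30 to 118 and 120 CPM, a 13.1-fold rise (3.71 ± 0.35, adjusted p = 4.44e-05 in edgeR). The neural levels of Id3 were thus alike in all 4 labels, whereas the ESC levels were not.

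Id4, which neural progenitors are known to express, rose from 1.18 and 2.80 CPM to 47.6 and 51.2 CPM in the R42A labels A04 and A10, or 24.1-fold (log2 change 4.59 ± 0.35, adjusted p = 1.59e-05 in edgeR). In the MD labels 09 and 30 it rose from 1.63 and 1.35 CPM to 135 and 138 CPM, or 87.1-fold (6.45 ± 0.39, adjusted p = 3.76e-06 in edgeR). Both neural MD values were above both neural R42A values. Id2 rose 10.05-fold in R42A, to 48.8 and 50.1 CPM in A04 and A10, and 4.42-fold in MD, to 54.995 and 51.6 CPM in 09 and 30 (adjusted p = 1.29e-06 and 7.84e-06 in edgeR).

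Id1 moved little between these stages. It was 13.6 and 13.8 CPM in neural R42A cells and 11.8 and 11.7 CPM in neural MD cells. The rise from ESC was called in R42A (log2 change 0.40 ± 0.11, adjusted p = 0.0103 in edgeR) and not in MD (-0.06 ± 0.11, adjusted p = 0.602). These comparisons use first-series ESC only, where Id1 was 9.27 to 12.3 CPM; second-series ESC clones, at 30.1 to 56.1 CPM, were all above the neural cells.

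The ligands moved in opposite directions. Bmp4 fell to 4.16 and 3.72 CPM in neural A04 and A10, 5.02-fold under ESC (log2 change -2.33 ± 0.10, adjusted p = 1.06e-06 in edgeR), and to 3.28 and 3.06 CPM in neural 09 and 30, 2.42-fold under ESC (-1.27 ± 0.10, adjusted p = 1.80e-05). Bmp7 rose 7.81-fold in R42A, to 38.2 and 36.7 CPM, and 11.8-fold in MD, to 17.6 and 17.7 CPM (adjusted p = 2.77e-06 and 1.29e-06 in edgeR). Bmp7 was thus the more abundant ligand transcript in neural cells and Bmp4 in ESC, also per length: 33.6 ± 1.48 against 6.32 ± 0.593 TPM (counts per exon length, scaled to a common total) in neural R42A cells, and 3.36 ± 0.852 against 33.8 ± 9.24 in R42A ESC (SD, n = 2 and 4).

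Nog rose 29.8-fold in R42A, to 8.23 and 8.39 CPM, and 12.3-fold in MD, to 6.72 and 7.001 CPM (adjusted p = 8.88e-06 and 2.77e-05 in edgeR). Smad7 fell 9.90-fold in R42A, to 5.73 and 4.88 CPM, and 8.57-fold in MD, to 4.16 and 4.11 CPM (adjusted p = 2.10e-07 and 2.34e-07). Against first-series ESC, Smad6 and Bambi took different courses by genotype. Smad6 rose 2.05-fold in R42A, to 5.06 and 4.90 CPM (adjusted p of 0.000212), and fell 1.58-fold in MD, to 2.37 and 2.65 CPM (adjusted p of 0.00216, or 0.0663 without label 09). Bambi was not called in R42A, at 8.66 and 8.88 CPM (log2 change -0.03 ± 0.11, adjusted p = 0.795) and fell 1.51-fold in MD, to 5.81 and 5.17 CPM (adjusted p of 0.00178). As with Id1, second-series ESC clones were not used here, and for both genes all were above the neural cells of their genotype. In the second-series R42A clones A01 and A02, Smad6 was at 5.47 and 6.37 CPM and Bambi at 10.96 and 11.5 CPM.

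Set against each other in neural cells, MD differed from R42A in 5 of the 10 genes. Id4 alone was higher, 1 of 10 beside 17.4% of all genes tested, and Bmp7, Smad6, Smad7 and Bambi were lower, 4 of 10 beside 16.3%. The median log2 change of the 10 was -0.30, beside 0.00 over all genes. Id4 was 2.76-fold higher (log2 change 1.46 ± 0.30, adjusted p = 0.00981 in edgeR), and its adjusted p was 0.0757 without the filter on low counts. Bmp7 was 2.13-fold lower (-1.09 ± 0.15, adjusted p = 0.00197), Smad6 1.99-fold lower (-0.99 ± 0.13, adjusted p = 0.00152) and Bambi 1.60-fold lower (-0.68 ± 0.11, adjusted p = 0.00373). Smad7 was 1.29-fold lower (-0.36 ± 0.10, adjusted p = 0.0269), a call lost without A04 (-0.23, adjusted p = 0.0588). For Id4, Bmp7, Smad6, Smad7 and Bambi both MD labels lay on the same side of both R42A labels.

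The remaining 5 genes did not pass in neural cells. Bmp4 had a log2 change of -0.32 ± 0.10 and an adjusted p of 0.0526 in edgeR, and passed in DESeq2 with 0.0351. Id1 had -0.23 ± 0.11 (adjusted p = 0.150), Id2 0.11 ± 0.14 (0.611), Id3 -0.02 ± 0.31 (0.986) and Nog -0.28 ± 0.28 (0.482). With each chromosome scaled separately, Nog, on chromosome 11, had -0.72 (adjusted p = 0.0670). The test takes its spread from ESC and neural sums together. With neural sums alone 9 of 10 genes passed, all but Id3, but far more of all genes were called in that fit too. The rise is thus not particular to these 10. Conversely, with MD label 09 or label 30 left out, the calls among the 10 were lost, while Id4 kept log2 changes of 1.48 and 1.45 and Bmp7 of -1.08 and -1.10. Leaving out labels also moved the number called over all genes. In these fits the single MD sum is assumed to vary like the other groups.

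**Figure D3:**
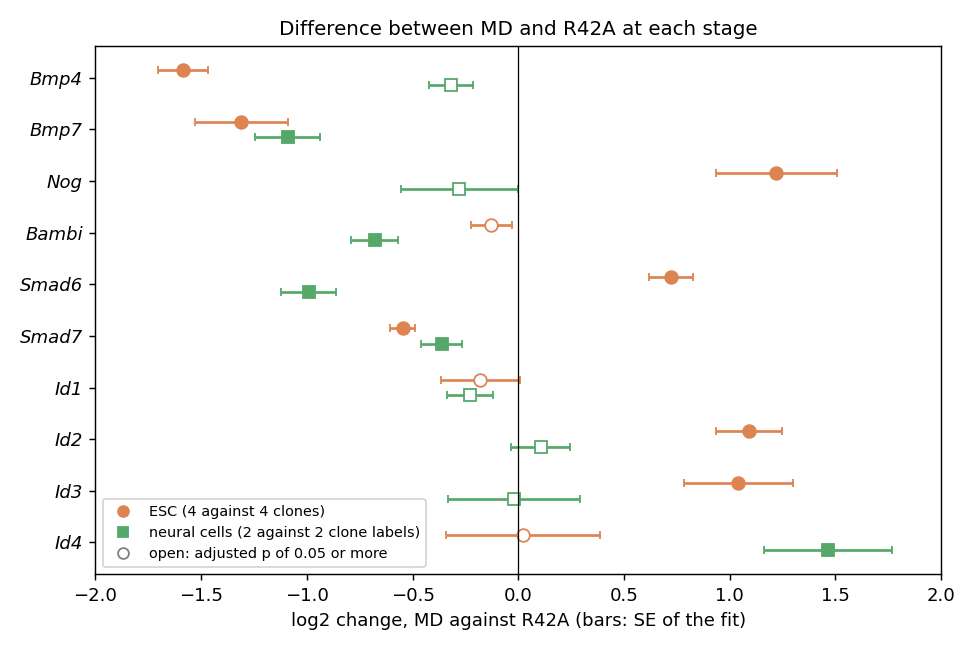
Log2 change of each gene between MD and R42A in ESC (orange, 4 against 4 clones) and in neural cells (green, 2 against 2 labels), with bars for the SE and open symbols where the adjusted p was 0.05 or more. Smad6 lies at 0.72 in ESC and at -0.99 in neural cells, and Id4 at 0.02 and 1.46.

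The MD effect itself was compared between the stages over the 4 shared clone labels, as the log2 change in neural cells less that in ESC. It was higher in neural cells for 2 of 10 genes, Id4 and Bmp4, beside 11.9% of all genes, and lower for 3, Smad6, Id2 and Bambi, beside 11.1%. Smad6 had the largest drop, -1.70 ± 0.18 (adjusted p = 0.00148 in edgeR), followed by Id2 with -1.19 ± 0.20 (0.00745) and Bambi with -0.56 ± 0.16 (0.0415). With the clone label as a block Bambi lost the call (adjusted p = 0.0778) and Id3 gained it (-1.51, adjusted p = 0.0458). Id4 had 1.85 ± 0.46 (0.0276) and Bmp4 1.05 ± 0.14 (0.00328). The differences of Id1 (-0.47, adjusted p = 0.0673), Id3 (-1.40, 0.0682), Nog (-1.28, 0.0727), Bmp7 (0.59, 0.0969) and Smad7 (0.21, 0.307) did not pass. The median over the 10 genes was -0.51, beside 0.02 over all genes.

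These calls rest on few sums. Leaving out A04 raised the number of these genes called, and leaving out MD label 09 or 30 removed every call. The number called over all genes moved widely in such fits as well, so this is not particular to the 10. Each such fit leaves a single sum of that genotype at each stage. The difference of Smad6 was -1.65 without 09 and -1.75 without 30. Without the filter on low counts, 3 of 10 were called, and the adjusted p was 0.144 for Id4 and 0.0632 for Bambi.

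Levels of different genes were compared per length, in TPM computed from the summed counts and the exon length of each gene. The 4 ID genes together reached 99.1 ± 68.3 in R42A ESC and 101 ± 46.97 in MD ESC (SD, n = 4 clones), and 404 ± 2.73 in R42A and 497 ± 13.8 in MD neural cells (SD, n = 2 labels). The ESC values spread from 36.1 in A10 to 159 in A01, mainly with Id1. In R42A ESC the order was Id1 (79.2 ± 60.6), Id3 (11.9 ± 7.34), Id2 (6.49 ± 1.06) and Id4 (1.59 ± 0.585), where Id3 and Id2 differed by less than the SD of Id3. In MD ESC it was Id1 (61.8 ± 39.0), Id3 (23.0 ± 9.70), Id2 (14.1 ± 1.56) and Id4 (1.72 ± 1.03), and neither Id1 and Id3 nor Id3 and Id2 differed beyond the SD of the higher. In each of the 8 ESC clones Id1 was nonetheless the most abundant.

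In neural R42A cells Id3 came first with 242 ± 4.48 TPM, then Id2 with 73.1 ± 0.226, Id4 with 46.3 ± 1.67 and Id1 with 42.7 ± 0.149. In neural MD cells Id3 again came first with 247 ± 9.41, but Id4 with 132 ± 5.25 stood above Id2 with 81.2 ± 1.58, and Id1 was last with 37.6 ± 0.733. These gaps between neighbours were larger than their SDs. As shares of the family, Id1 made up 75.1% ± 9.68 in R42A ESC and 58.0% ± 10.5 in MD ESC, against 10.6% ± 0.0343 and 7.56% ± 0.0627 in neural cells. Id4 made up 2.61% ± 2.55 and 1.83% ± 0.770 in ESC, and 11.5% ± 0.491 and 26.5% ± 0.320 in neural R42A and MD cells.

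**Figure D4:**
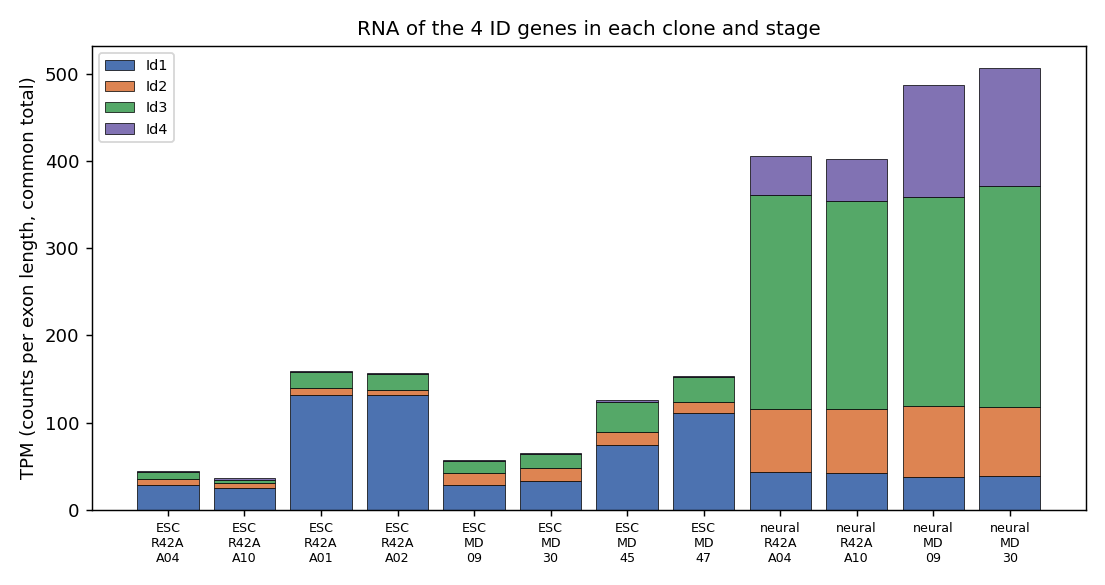
TPM (counts per exon length, scaled to a common total) of Id1, Id2, Id3 and Id4, stacked for each clone sum of ESC and neural cells. The sum runs from 36.1 to 159 in ESC and from 402 to 507 in neural cells, and Id3 is the largest part in all 4 neural sums.

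A list of 63 further genes of the pathway, sorted by role, was read in the same tests. In ESC 16 of the 52 tested were higher in MD and 9 lower, beside 17.1% and 19.4% of all genes tested, with a median log2 change of 0.15 against -0.03 over all genes. The same shares apply to the counts by role. Of 11 receptors and co-receptors 2 were higher and 3 lower. Bmpr1b, a type I BMP receptor, rose from 0.893 to 2.67 CPM (log2 change 1.60 ± 0.21, adjusted p = 0.000559 in edgeR), while Acvrl1, a type I receptor best known from endothelium, fell from 1.35 to 0.424 CPM (-1.68 ± 0.30, 0.00288) and Hjv, the co-receptor hemojuvelin, from 3.20 to 1.68 CPM (-0.93 ± 0.20, 0.00659).

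Among 14 antagonists and modulators tested in ESC, 6 were higher and 2 lower. Fst, encoding follistatin, which binds activins and some BMPs, rose from 1.38 to 3.09 CPM (1.17 ± 0.21, adjusted p = 0.00286 in edgeR). Bmp1, a protease that cleaves the antagonist chordin and is no BMP ligand, rose from 2.51 to 5.19 CPM (0.95 ± 0.27, 0.0239). Of 9 SMADs and regulators 3 were higher and 2 lower, and Smad9, a SMAD that BMP receptors phosphorylate, rose from 0.679 to 1.22 CPM (0.85 ± 0.26, 0.0300). Smad1, of the same class and more abundant, fell from 25.3 to 15.6 CPM (-0.69 ± 0.09, adjusted p = 0.000616 in edgeR). Smad5, also of that class, did not pass (69.1 and 66.6 CPM). Of 6 ligands tested 3 were higher and 0 lower. Of 9 further targets 2 were higher and 1 lower: Gata3 rose from 0.234 to 1.24 CPM (2.37 ± 0.29, 0.000448) and Tfap2a fell from 1.90 to 0.854 CPM (-1.17 ± 0.23, 0.00415), both transcription factors of the early surface ectoderm.

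In neural cells 14 of 61 were higher in MD and 14 lower, beside 17.4% and 16.3% of all genes tested, with a median log2 change of 0.01. Of 11 ligands 1 was higher and 3 lower: Bmp3 rose from 0.599 to 1.79 CPM (1.57 ± 0.27, adjusted p = 0.00462 in edgeR), while Bmp6 fell from 26.9 to 8.82 CPM (-1.61 ± 0.18, 0.000783) and Gdf6 from 1.74 to 0.196 CPM (-3.15 ± 0.47, 0.00249). Of 11 receptors and co-receptors 5 were higher and 3 lower. Bmpr1b rose from 9.33 to 35.1 CPM (1.91 ± 0.12, 0.000128), and Eng, the co-receptor endoglin, fell from 2.29 to 0.5998 CPM (-1.94 ± 0.17, 0.000341). Endothelial markers (Kdr, Pecam1, Cdh5, Tek) summed to 20.5 to 23.5 CPM in neural R42A cells and 8.76 to 8.83 CPM in MD. The gap came from Kdr (11.6 and 3.25 CPM) and Tek (6.97 and 1.37 CPM), while Cdh5 was at 2.77 and 2.43 CPM and Pecam1 was higher in MD (0.638 and 1.74 CPM). Their part in the result was not tested.

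Of 17 antagonists and modulators 2 were higher and 3 lower in MD neural cells. Of 10 further targets 5 were higher and 2 lower, with Gata3 (1.57 ± 0.23, adjusted p = 0.00245 in edgeR) and Tfap2a (1.88 ± 0.31, 0.00406) among the higher. Neural crest markers (Sox10, Foxd3, Tfap2b) summed to 33.1 to 34.4 CPM in R42A and 80.8 to 86.8 CPM in MD, with Sox10 and Foxd3 under 1 CPM in both, and their part was not tested. Of 9 SMADs and regulators 1 was higher and 2 lower.

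The 3 E proteins bound by ID proteins (Tcf3, Tcf4, Tcf12), named here as the whole list, were all higher in neural cells than in ESC in both genotypes. Tcf12 went from 45.9 to 435 CPM in R42A and from 48.4 to 487 CPM in MD. Between genotypes, Tcf4 was lower in MD ESC (-0.45 ± 0.09, adjusted p = 0.00632 in edgeR) and Tcf3 lower in MD neural cells (-0.27 ± 0.06, 0.0121); the other comparisons of MD with R42A did not pass.

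Between the stages, 44 of 61 pathway genes were higher in neural cells in R42A and 9 lower, and 47 were higher and 9 lower in MD. Over all genes tested 37.9% were higher and 40.4% lower in R42A, and 40.3% and 41% in MD. All 14 antagonists and modulators that were called in each genotype were higher. Rgma, a co-receptor also known in axon guidance, rose from 1.17 to 135 CPM in R42A (6.82 ± 0.12, adjusted p = 3.31e-08 in edgeR). Gdf6, a ligand, went from 0.0246 to 1.74 CPM (6.06 ± 0.57, 4.48e-05) and Atoh8, a transcription factor, from 0.0454 to 4.10 CPM (6.45 ± 0.29, 1.12e-06). Gdf3, a ligand of pluripotent cells, fell from 83.2 to 0.809 CPM in R42A (-6.72 ± 0.12) and from 110 to 1.05 CPM in MD (-6.78 ± 0.12). Bmp5 had 1 count in all R42A ESC libraries of A04 and A10 and 1133 counts in the neural ones; Gdf7 had 2 and 234, and Cer1 2 and 258. In MD, Rgma rose from 0.939 to 172 CPM (7.43 ± 0.12) and Atoh8 from 0.0373 to 2.19 CPM (5.78 ± 0.30). Bmp3 rose from 0.00960 to 1.79 CPM (7.33 ± 0.42), on 4 ESC counts, and Bmp5 from 0.131 to 5.62 CPM (5.30 ± 0.77). In the same cells Bmp8b fell from 3.43 to 0.159 CPM (-4.50 ± 0.23) and Bmp1 rose from 3.36 to 62.6 CPM (4.14 ± 0.23).

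Of the 61 pathway genes tested, 8 had a higher and 10 a lower MD effect in neural cells than in ESC, beside 11.9% and 11.1% of all genes. Acvrl1 (3.57 ± 0.54, adjusted p = 0.00482 in edgeR) and Tfap2a (3.10 ± 0.45, 0.00403) were higher. Gdf6 (-5.45 ± 0.76, 0.00365), Fst (-1.69 ± 0.10, 0.000285), Msx1 (-1.50 ± 0.24, 0.00579), Eng (-1.29 ± 0.22, 0.00759), Chrdl1 (-1.25 ± 0.23, 0.00952) and Bmp6 (-1.21 ± 0.26, 0.0163) were lower. The values of Acvrl1 and Gdf6 rest on low levels. Acvrl1 was at 0.184 CPM in neural R42A cells and 0.665 CPM in neural MD cells. Gdf6 had 11 counts in the R42A ESC of this fit and did not pass the filter in the ESC fit. Fst, like Id2 and Smad6, was called higher in MD ESC, and in neural cells it was called lower (-0.40 ± 0.07, 0.00482).

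Over the 12 clone sums, the genes whose log2 CPM followed each ID gene most closely were sought among 10316 genes with a mean of at least 10 CPM, as a description over sums that share stage and library run. For Id1 they were Mrps11 (Pearson r = 0.988), Gm10073 (0.986) and Bax (0.984). For Id2 they were Ehmt1 (0.996), Efnb2 (0.995) and Chd7 (0.994), and for Id3 Rhob (0.997) and Bcl2l1 (0.990). For Id4 they were D430042O09Rik (0.997), D430019H16Rik (0.995) and Lhx2 (0.994).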

How the data were processed

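RNA was measured in 32 libraries. The authors deposited 1 table of expected counts per library, not normalized, in which 1.46% to 1.7% of values were not whole (tolerance 1e-06). Trim Galore 0.60, STAR 2.7.1a, RSEM 1.3.0, DESeq2 without a version and mm10 are named per the submitters' processing notes, with no roles; the annotation release and strand are not given in the sources used here. Each table held 55665 entries, of which 92 ERCC entries, with a total count of 0, were left out. Values were then rounded to integers, and libraries of a clone at 1 stage were added up. Tests were edgeR 4.0.16 quasi-likelihood F-tests (R 4.3.3, robust, TMM, filterByExpr with a minimum count of 10, Benjamini-Hochberg adjustment over all tested genes). The ESC fit took 8 clone sums and had the library series as a covariate. The neural and stage comparisons came from 1 fit of 4 groups on 8 sums. SEs were derived from the log2 change and its F statistic. CPM used TMM library sizes over all 12 sums or all 32 libraries, and TPM used GENCODE M21 exon lengths (mm10). No pair of libraries of a clone agreed within sampling noise (28 pairs, chi-square per degree of freedom of at least 2.99). The labels do not say whether numbered libraries are separate cultures, so p-values measure the spread between sums, which may be technical in part.

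The 10 genes, the pathway and marker lists and the tests were chosen with earlier results of these data known. All 10 genes are named. Of the other pathway genes, those named are at most the 8 with the largest absolute log2 change among those called with at least 1 CPM in 1 group, and the likeness genes are the 3 of highest r. Some genes that this rule takes are not reported here. The named E proteins, Smad1 and Smad5 in ESC, and Msx1 and Atoh8 between genotypes in neural cells fall outside that rule. They were chosen after their values were seen. The fits were tested on simulated data. DESeq2 1.42.0, no filter, scaling by chromosome, single libraries, series alone, a clone block and leaving out each clone were tried as alternatives.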

Additional observations from a re-analysis of the deposited data

Results flagged for a closer look

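Among the 20 groups of 4 ESC clones examined, 1 held a clone far from the others: Id4 in MD clone 45 was at 4.41 CPM, while the other MD clones were at 1.35 to 1.72 CPM. Chance alone sets apart about 1 in 20 such groups. For 5 genes the difference between MD and R42A was not the same in neural cells and ESC by edgeR's test of the difference itself. The neural log2 change less that in ESC was -1.19 for Id2, 1.85 for Id4, 1.05 for Bmp4, -1.70 for Smad6 and -0.56 for Bambi. These 5 values were computed over 2 clone labels per genotype at each stage. Id4 and Bambi lost the call without the filter on low counts, and Bambi also with the clone label as a block.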

How the results depend on the processing

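Over 500 recalculated values of single genes, 433 kept direction and side of the threshold, 34 lost the call, 23 gained it and 10 changed sign. The sign changes were all of values not called in the main fit. Id3 in neural cells was 0.011 with each chromosome scaled separately. Id1 and Id4 in ESC were 0.26 and -0.37 in the first series alone. Over all alternatives Id4 in ESC ran from -0.39 to 0.47 and Id1 from -0.54 to 0.26, so neither had a settled direction. Leaving out a clone at a time gave -0.39 to 0.45 for Id4 and -0.29 to 0.018 for Id1 in ESC, -0.078 to 0.0076 for Bambi between stages in R42A, and -0.15 to 0.028 for Id1 between stages in MD. In ESC, 7862 genes and 7 of the 10 were called; without the series term 3084 and 4, in the first series alone 1769 and 4, and in the second alone 4878 genes. In neural cells, 8030 genes and 5 of the 10 were called; with single libraries 12717 and 9, with neural sums alone 13643 and 9, and leaving out labels 1538 to 9967 and 0 to 6. For the difference between stages, 5472 genes and 5 were called; without the filter 3 of the 10, and leaving out labels 77 to 8759 and 0 to 9. With clone as a block Bambi lost that call (adjusted p = 0.0778) and Id3 gained it (0.0458).

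Library numbers were not taken as pairing the samples, since not every same-numbered pair across genotypes correlated over 0.1: 8 of 12 and 10 of 12 did in the ESC series and 6 of 8 in neural cells. As a hint from the data, not the design, same-numbered neural libraries had r of 0.053 to 0.35. The other neural pairs had the same range and median with the sign reversed, -0.35 to -0.053, so they are no separate evidence. In the second ESC series the medians were 0.32 for the same number and -0.17 for the others. In the first and second ESC series, 5 of 12 and 9 of 12 libraries correlated best with their own number. In neural cells 8 of 8 did, which follows from the reversed signs and adds nothing. With the replicate block on single libraries 10111 genes and 7 of the 10 were called in ESC, against 10110 and 7 without it, and 13067 and 9 in neural cells. The 10 genes' values rest on counts well above the filter, except Nog in ESC.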
